A study of Saccharomyces cerevisiae with 12 samples.

Results

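The 10 genes described here are those of pyrimidine synthesis and uracil salvage in *Saccharomyces cerevisiae*: *URA1*, *URA2*, *URA3*, *URA4*, *URA5*, *URA6*, *URA7*, *URA8*, *FUR1* and *FUR4*. They were chosen by gene symbol from the 6302 genes in the table of 5PSeq counts, and all 10 were found. The values that follow are for 4 strains with 3 libraries each, in the order ncs2Δelp6Δhel2Δ, ncs2Δelp6Δ, hel2Δ and wild type. All strains were BY4741 derivatives listed as MATa his3Δ1 leu2Δ0 ura3Δ0. The wild type was also listed as met15Δ0. The hel2Δ strain carried hel2Δ::LEU2, the ncs2Δelp6Δ strain ncs2Δ::HIS3MX and elp6Δ::URA3, and the ncs2Δelp6Δhel2Δ strain all 3 of these deletions. Cells were grown in YPD at 30°C with shaking at 200 rpm and collected in mid-exponential phase. The study's strain list also names versions of both U34-mutant strains with elp6Δ::NAT in place of the URA3 marker, while the labels of these libraries give elp6Δ::URA3. The labels do not say whether the replicates were separate cultures, so p-values measure the spread between these libraries, which may be technical.

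Yeast builds uridine monophosphate (UMP) from carbamoyl phosphate and aspartate through dihydroorotate and orotate, or recovers it from uracil taken up from the medium. UMP is then phosphorylated to UTP, and UTP is aminated to CTP. The transcription factor Ppr1 activates several genes of the pathway when the intermediates dihydroorotate or orotate accumulate, and UTP inhibits the first enzyme. A strain with ura3Δ0 and no other copy of *URA3* lacks orotidine monophosphate decarboxylase and grows only when uracil is supplied, as it is in YPD, while a *URA3* marker elsewhere in the genome supplies the enzyme. Ncs2 and Elp6 are needed for modifications of the wobble uridine (U34) of some tRNAs, and Hel2 is the ubiquitin ligase that marks collided ribosomes. 5PSeq sequences mRNA decay intermediates that carry a 5′ phosphate. The counts were not divided by mRNA level here, so a larger or smaller mRNA pool and a change in its degradation cannot be told apart.

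Depth was low for most of these genes. Libraries held between 104202 and 415323 counts with a median of 215411.5, and the 10 genes together took 0.228% to 0.430% of a library. In a single library 3 counts were 7.22e-04% to 0.00288% of the total. The deleted genes were lower in the strains listed as lacking them: *NCS2* had 2, 0, 15 and 18 reads summed over the 3 libraries of ncs2Δelp6Δhel2Δ, ncs2Δelp6Δ, hel2Δ and wild type, *ELP6* had 10, 4, 20 and 20 reads, and *HEL2* had 5, 89, 8 and 48 reads. Of the genes whose names appear in the marker labels, *HIS3* had 19, 20, 7 and 8 reads and *LEU2* had 7, 1, 10 and 1 reads in the same order of strains. Whether these reads came from the markers was not tested.

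*URA3*, the gene for orotidine monophosphate decarboxylase, was almost without reads. The ncs2Δelp6Δhel2Δ libraries held 0, 0 and 1 read, the ncs2Δelp6Δ libraries 0, 0 and 0, the hel2Δ libraries 0, 0 and 0, and the wild-type libraries 0, 1 and 0. The 6 libraries labelled elp6Δ::URA3 therefore held 1 *URA3* read in 1522941 reads, and the other 6 libraries 1 in 1066280. For the libraries labelled with the marker, the exact 95% binomial interval was 0.0166 to 3.66 reads per 1e+06 reads, from totals without scaling. The ncs2Δelp6Δ strain alone had 0 of 765797 reads, which allows a share of up to 3.92e-04%. Levels from here on are in CPM (counts per 1e+06 counts of the library, with the library total scaled by TMM). Mean levels were 0.712 CPM in the libraries labelled with the marker and 1.10 CPM in those without, a difference of −0.39 CPM. The ncs2Δelp6Δhel2Δ and ncs2Δelp6Δ libraries averaged 1.42 and 0 CPM. With 10 of 12 libraries at 0, no split of these values by the two-sided exact permutation test could give a p below 0.455 between libraries with and without the marker label, or below 1 between ncs2Δelp6Δhel2Δ and ncs2Δelp6Δ, so the test can show no difference either way. The labels do not say which *URA3* sequence the marker holds. By label the URA3 marker, the HIS3MX marker and the loss of *NCS2* and *ELP6* coincide, so their effects on the other genes cannot be told apart.

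Within wild-type cells the order of levels was read from CPM per kilobase of reading frame. Whether 5PSeq reads grow with the length of the reading frame was not tested. Without division by length, mean wild-type levels were 362 CPM for *URA7*, 169 CPM for *URA5* and 142 CPM for *URA6*. The order below therefore depends on this division. *URA2*, which encodes the carbamoyl phosphate synthase and aspartate transcarbamylase that starts the pathway (YJL130C, chromosome X, 165723-172367 in the RefSeq R64 assembly), was at the top with a mean of 357 CPM per kb and libraries between 259 and 550.0. *URA5*, the major orotate phosphoribosyltransferase (YML106W, chromosome XIII, 56773-57453), followed with a mean of 248 CPM per kb. *URA6*, the kinase that phosphorylates UMP (YKL024C, chromosome XI, 392526-393140), had a mean of 230.4 CPM per kb. *URA7*, the major CTP synthase (YBL039C, chromosome II, 143989-145728), had a mean of 208 CPM per kb. On this scale per kb these 4 genes stood above 90.8% to 95.6% of the 5772 genes with a known length.

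The other members lay lower on the same scale. *URA1*, dihydroorotate dehydrogenase (YKL216W, chromosome XI, 25215-26159), averaged 60.9 CPM per kb in wild-type cells. *URA4*, dihydroorotase (YLR420W, chromosome XII, 963785-964879), averaged 57.5 CPM per kb. *URA8*, the minor CTP synthase (YJR103W, chromosome X, 620754-622490), averaged 35.8 CPM per kb. The salvage genes came next, *FUR1*, uracil phosphoribosyltransferase (YHR128W, chromosome VIII, 362115-362765), at 26.1 CPM per kb and *FUR4*, the uracil permease of the plasma membrane (YBR021W, chromosome II, 281443-283344), at 25.04 CPM per kb. Neighbours in this order overlapped between wild-type libraries with 2 exceptions: every *URA7* library was above every *URA1* library, and every *FUR4* library was above every *URA3* library (YEL021W, chromosome V, 116167-116970, mean 2.74 CPM per kb).

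**Figure D1:**
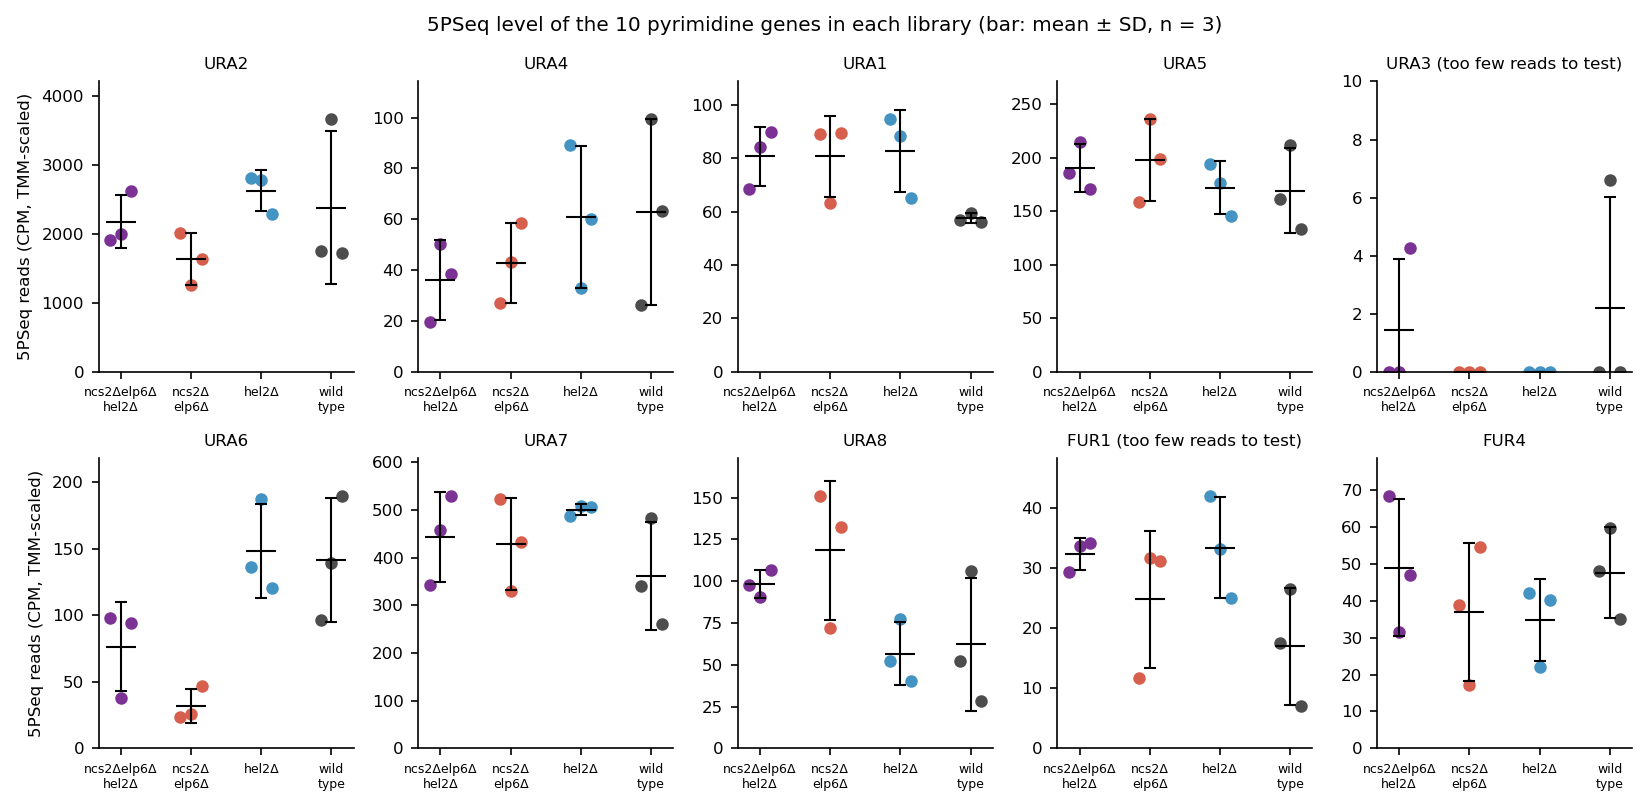
Level of each of the 10 genes in CPM in each of the 12 libraries (points) with the strain mean and its SD (bars, n = 3), for ncs2Δelp6Δhel2Δ, ncs2Δelp6Δ, hel2Δ and wild type. The *URA6* points of ncs2Δelp6Δ lie between 23.2 and 46.7 CPM, below all 6 hel2Δ and wild-type points.

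In the model over all genes, *URA3* and *FUR1* did not pass the filter on low counts and the other 8 members were tested. *URA6* fell in ncs2Δelp6Δ against wild type, and it was the only member of 8 with an adjusted p under 0.05 there, where 30.1% of all 3378 genes tested passed. In ncs2Δelp6Δhel2Δ against hel2Δ *URA6* was again the 1 of 8, where 14.6% of all genes passed. When loss of the U34 modifications was averaged over both *HEL2* backgrounds, *URA6* fell and *URA8* rose, 2 of 8 members where 39.1% of all genes passed. In these comparisons the members' share was no higher than that of all genes.

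*URA6* levels were 97.7, 37.8 and 94.0 CPM in the ncs2Δelp6Δhel2Δ libraries, 23.2, 25.9 and 46.7 CPM in the ncs2Δelp6Δ libraries, 137, 188 and 120.4 CPM in the hel2Δ libraries, and 96.3, 139 and 189.7 CPM in the wild-type libraries. The ncs2Δelp6Δ libraries were all below the wild-type libraries, and the ncs2Δelp6Δhel2Δ libraries all below the hel2Δ libraries. Strain means were 76.5 ± 33.6 CPM in ncs2Δelp6Δhel2Δ, 32.0 ± 12.9 CPM in ncs2Δelp6Δ, 148 ± 35.1 CPM in hel2Δ and 142 ± 46.8 CPM in wild type (SD, n = 3 each). The level was 4.31-fold lower in ncs2Δelp6Δ than in wild type (log2 fold change −2.11 ± 0.39 SE, adjusted p = 1.89e-04 by edgeR's quasi-likelihood test). It was 2.12-fold lower in ncs2Δelp6Δhel2Δ than in hel2Δ (log2 fold change −1.09 ± 0.37, adjusted p = 0.0470 by the same edgeR test), a call that was lost without 1 of the libraries ncs2Δelp6Δhel2Δ replicate 2 (adjusted p = 0.385), hel2Δ replicate 1 (0.126), hel2Δ replicate 2 (0.140) or hel2Δ replicate 3 (0.0569). Over both backgrounds the log2 fold change was −1.60 ± 0.27 (adjusted p = 4.42e-05).

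Deletion of *HEL2* did not shift *URA6* past the threshold. The log2 fold change was 1.07 ± 0.42 in ncs2Δelp6Δhel2Δ against ncs2Δelp6Δ (edgeR adjusted p = 0.144) and 0.05 ± 0.34 in hel2Δ against wild type (adjusted p = 1.00). The difference between these 2 effects was tested as an interaction and came to 1.02 ± 0.54 on the log2 scale (adjusted p = 0.595). In ncs2Δelp6Δhel2Δ against wild type the log2 fold change was −1.04 ± 0.36 (adjusted p = 0.0690), and the libraries overlapped. Counts were small, between 6 and 27 reads per library. The *URA6* reading frame lies 5 bp from *MIN9* on the same strand, so the windows extended by 21 bp overlap, and *MIN9* itself had 5 reads in the 12 libraries.

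*URA8* went the other way, on small counts. It had 10, 43 and 25 reads in the ncs2Δelp6Δhel2Δ libraries and 39, 25 and 34 in the ncs2Δelp6Δ libraries. The hel2Δ libraries held 10, 7 and 8 *URA8* reads and the wild-type libraries 12, 16 and 4. The *URA8* level was 97.7, 90.4 and 107 CPM in the ncs2Δelp6Δhel2Δ libraries and 151, 71.9 and 132 CPM in the ncs2Δelp6Δ libraries, against 52.5, 77.3 and 40.1 CPM in the hel2Δ libraries and 52.5, 106 and 28.1 CPM in the wild-type libraries. Every ncs2Δelp6Δhel2Δ library was above every hel2Δ library, while ncs2Δelp6Δ and wild type overlapped because wild-type replicate 2 was high and ncs2Δelp6Δ replicate 2 low. Means were 98.3 ± 8.25 CPM in ncs2Δelp6Δhel2Δ, 118 ± 41.4 CPM in ncs2Δelp6Δ, 56.6 ± 18.9 CPM in hel2Δ and 62.2 ± 39.8 CPM in wild type (SD, n = 3 each). Over both *HEL2* backgrounds the level was 1.86-fold higher with loss of the U34 modifications (log2 fold change 0.89 ± 0.27, adjusted p = 0.0111 by edgeR's quasi-likelihood test). Each background alone missed the threshold, with log2 fold changes of 0.91 ± 0.37 in ncs2Δelp6Δ against wild type (adjusted p = 0.0620) and 0.88 ± 0.40 in ncs2Δelp6Δhel2Δ against hel2Δ (adjusted p = 0.147). The first of these passed without ncs2Δelp6Δ replicate 2 (1.25, adjusted p = 0.0115) or without wild-type replicate 2 (1.43, adjusted p = 0.0136).

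**Figure D2:**
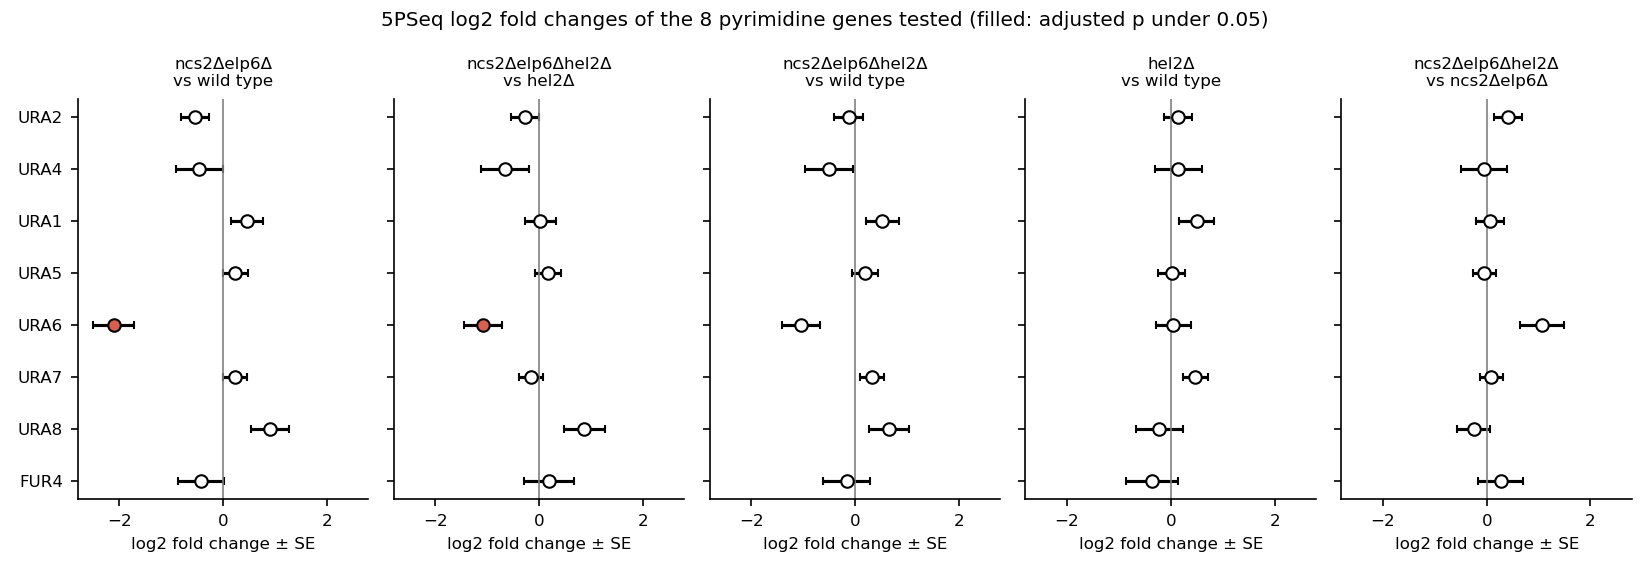
Log2 fold change (points) with its SE (bars) for the 8 members tested, one panel per pairwise comparison, filled where the adjusted p was under 0.05. *URA6* is filled in ncs2Δelp6Δ against wild type at −2.11 and in ncs2Δelp6Δhel2Δ against hel2Δ at −1.09, and no other point is filled.

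The enzymes upstream of orotate did not pass the threshold in any of the 7 comparisons. *URA2* read 1906, 1998 and 2611 CPM in the ncs2Δelp6Δhel2Δ libraries, 2014, 1263 and 1631 CPM in the ncs2Δelp6Δ libraries, 2799, 2781 and 2278 CPM in the hel2Δ libraries, and 1746, 3655 and 1722 CPM in the wild-type libraries. The ncs2Δelp6Δ libraries overlapped wild type only at their highest value, and wild-type replicate 2 stood far above the other wild-type libraries. The log2 fold changes of *URA2* were −0.54 ± 0.27 in ncs2Δelp6Δ against wild type (edgeR adjusted p = 0.139), −0.27 ± 0.27 in ncs2Δelp6Δhel2Δ against hel2Δ (adjusted p = 0.545) and −0.40 ± 0.19 over both backgrounds (adjusted p = 0.1004). *URA4* read 19.5, 50.4 and 38.5 CPM in the ncs2Δelp6Δhel2Δ libraries, 27.1, 43.1 and 58.4 CPM in the ncs2Δelp6Δ libraries, 89.3, 33.1 and 60.2 CPM in the hel2Δ libraries, and 26.3, 99.3 and 63.2 CPM in the wild-type libraries. All 4 strains overlapped, and its within-strain SD of 0.62 on the log2 CPM scale was the highest of the 8 members tested, against a median of 0.36 over all genes tested. The *URA4* log2 fold change was −0.55 ± 0.32 over both backgrounds (adjusted p = 0.180).

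*URA1* was the most even member, with a within-strain SD of 0.20 on the log2 CPM scale. It read 68.4, 84.1 and 89.7 CPM in the ncs2Δelp6Δhel2Δ libraries, 89.1, 63.3 and 89.5 CPM in the ncs2Δelp6Δ libraries, 94.5, 88.3 and 65.2 CPM in the hel2Δ libraries, and 56.9, 59.6 and 56.2 CPM in the wild-type libraries. All 9 libraries of the mutant strains were above all 3 wild-type libraries. Counts were small, between 7 and 40 *URA1* reads per library, with 13, 9 and 8 in the wild-type libraries. None of the 3 comparisons with wild type passed the test across genes: the log2 fold change was 0.53 ± 0.31 in ncs2Δelp6Δhel2Δ (edgeR adjusted p = 0.312), 0.47 ± 0.31 in ncs2Δelp6Δ (adjusted p = 0.272) and 0.50 ± 0.34 in hel2Δ (adjusted p = 0.980). The 3 comparisons share the wild-type libraries. The wild type also differs from the mutants in its met15Δ0 label, which cannot be told apart from the deletions in these comparisons.

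*URA5* and *URA7* passed in none of the 7 comparisons. *URA5* averaged 190.3 ± 22.1 CPM in ncs2Δelp6Δhel2Δ, 198 ± 38.5 CPM in ncs2Δelp6Δ, 172 ± 24.7 CPM in hel2Δ and 169 ± 39.7 CPM in wild type, with all strains overlapping (SD, n = 3 each). *URA7* read 342, 458 and 529.9 CPM in the ncs2Δelp6Δhel2Δ libraries, 523, 331 and 432 CPM in the ncs2Δelp6Δ libraries, 488, 508 and 507 CPM in the hel2Δ libraries, and 341, 483 and 260.0 CPM in the wild-type libraries. The hel2Δ libraries of *URA7* were all above wild type (log2 fold change 0.47 ± 0.24, edgeR adjusted p = 0.980), without passing the test. Their log2 fold changes in ncs2Δelp6Δ against wild type were both 0.24, with adjusted p of 0.489 for *URA5* and 0.472 for *URA7* by edgeR's quasi-likelihood test.

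The salvage genes had few reads. *FUR1* had 3, 16 and 8 reads in the ncs2Δelp6Δhel2Δ libraries, 3, 11 and 8 in the ncs2Δelp6Δ libraries, 8, 3 and 5 in the hel2Δ libraries, and 4, 4 and 1 in the wild-type libraries. Its mean was 32.4 ± 2.66 CPM in ncs2Δelp6Δhel2Δ, 24.8 ± 11.4 CPM in ncs2Δelp6Δ, 33.4 ± 8.46 CPM in hel2Δ and 17.0 ± 9.74 CPM in wild type (SD, n = 3 each). With 1 to 16 reads per library *FUR1* did not pass the filter on low counts and was not tested in the main model. The alternative fit without a filter included *FUR1* and did not call it. *FUR4* averaged 49.0 ± 18.5 CPM in ncs2Δelp6Δhel2Δ, 36.8 ± 18.7 CPM in ncs2Δelp6Δ, 34.7 ± 11.01 CPM in hel2Δ and 47.6 ± 12.2 CPM in wild type. The strains overlapped, and the *FUR4* log2 fold change in ncs2Δelp6Δ against wild type was −0.43 ± 0.45 (edgeR adjusted p = 0.506).

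In the other comparisons no member passed. This was 0 of 8 in ncs2Δelp6Δhel2Δ against wild type, where 11.1% of all genes passed. There 1 of 8 members had an unadjusted p under 0.05 by edgeR, beside 866 of all 3378 genes tested. It was 0 of 8 in ncs2Δelp6Δhel2Δ against ncs2Δelp6Δ, where 5.68% of all genes passed. Here 1 of 8 members had an unadjusted p under 0.05, beside 642 of 3378 genes. In hel2Δ against wild type 0 of 8 members and 0.0888% of all genes passed. No member had an unadjusted p under 0.05 there, beside 141 of 3378 genes. For the interaction of *HEL2* deletion and U34 modification loss 0 of 8 members and 0.0296% of all genes passed. Again no member had an unadjusted p under 0.05, beside 328 of 3378 genes. DESeq2 gave 0 members in ncs2Δelp6Δhel2Δ against wild type and in hel2Δ against wild type. It also called 0 in ncs2Δelp6Δhel2Δ against ncs2Δelp6Δ and for the interaction, but there it gave no adjusted p for 5 and 7 of the 8 members. The median log2 fold change of the 8 members was −0.10 in ncs2Δelp6Δ against wild type, against 0.04 for all genes tested, and −0.06 in ncs2Δelp6Δhel2Δ against hel2Δ, against 0.05 for all genes tested.

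*URA7* with *URA8* and *URA5* with *URA10* are pairs of isozyme genes. The share of *URA8* or *URA10* in the reads of its pair was chosen for display after these values were seen, so it is given without a test. Major and minor name the enzymes here, not the reads. In wild type *URA10* averaged 256 CPM per kb and *URA5* 248 CPM per kb. *URA8* took 22.2%, 16.5% and 16.8% of the reads of its pair in the ncs2Δelp6Δhel2Δ libraries, 22.4%, 17.9% and 23.4% in the ncs2Δelp6Δ libraries, 9.71%, 13.2% and 7.34% in the hel2Δ libraries, and 13.3%, 18.0% and 9.76% in the wild-type libraries. The ncs2Δelp6Δhel2Δ libraries were all above the hel2Δ libraries, and ncs2Δelp6Δ overlapped wild type at wild-type replicate 2. *URA10*, the minor orotate phosphoribosyltransferase (YMR271C, chromosome XIII, 806865-807548), took 5.00%, 12.1% and 23.1% of the reads of its pair in ncs2Δelp6Δhel2Δ, 0%, 4.65% and 13.6% in ncs2Δelp6Δ, 46.4%, 42.9% and 55.4% in hel2Δ, and 33.9%, 52.9% and 60.4% in wild type. All 6 libraries without the U34 modifications were below the other 6 libraries. The ncs2Δelp6Δ library at 0% had 0 *URA10* reads against 41 *URA5* reads. Reads that matched both genes of a pair equally well were not counted, which could change these shares.

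**Figure D3:**
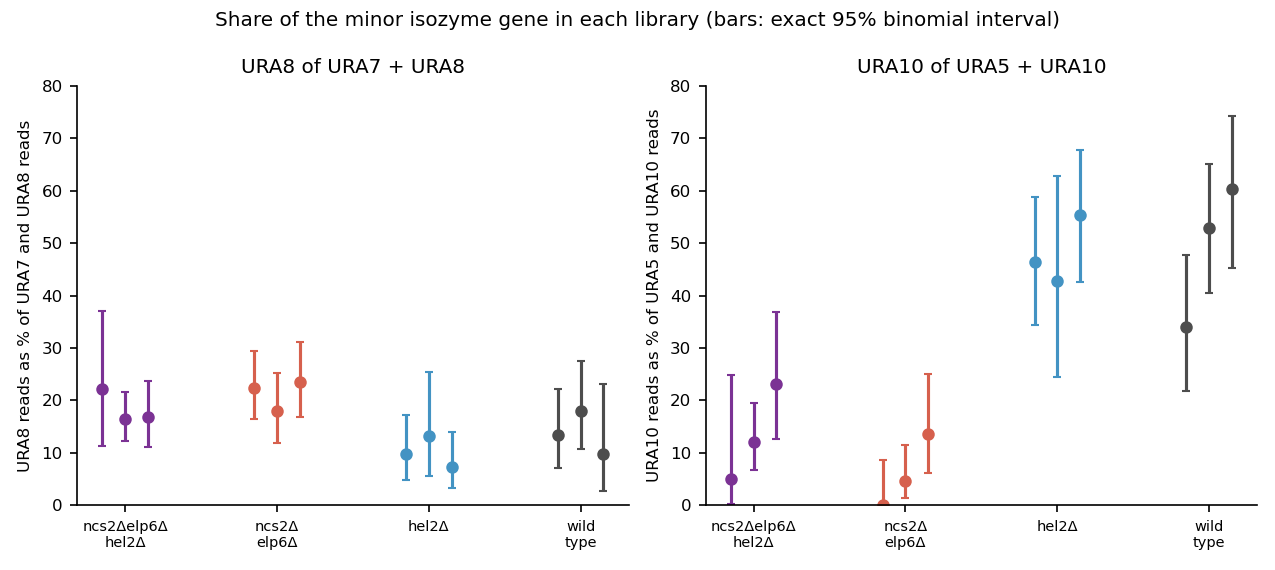
Share of *URA8* in the reads of *URA7* and *URA8* (left) and of *URA10* in the reads of *URA5* and *URA10* (right), in percent, for each library (points) with its exact 95% binomial interval (bars), which covers counting error only. The *URA10* share is at most 23.1% in ncs2Δelp6Δhel2Δ and ncs2Δelp6Δ and at least 33.9% in hel2Δ and wild type.

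*URA10* itself fell with loss of the U34 modifications, while its paralog *URA5* did not pass the test. It averaged 30.2 ± 20.8 CPM in ncs2Δelp6Δhel2Δ, 14.2 ± 15.7 CPM in ncs2Δelp6Δ, 160.4 ± 24.99 CPM in hel2Δ and 175 ± 81.5 CPM in wild type (SD, n = 3 each). The log2 fold change was −3.54 ± 0.52 in ncs2Δelp6Δ against wild type (adjusted p = 1.17e-05 by edgeR's quasi-likelihood test), −2.29 ± 0.47 in ncs2Δelp6Δhel2Δ against hel2Δ (adjusted p = 0.00219) and −2.91 ± 0.35 over both backgrounds (adjusted p = 6.03e-07). The ncs2Δelp6Δ libraries held 0, 4 and 8 *URA10* reads, and with 1 library left out the value against wild type ran from −4.57 (without ncs2Δelp6Δ replicate 3) to −3.02 (without ncs2Δelp6Δ replicate 1). *PPR1*, the activator of the pathway (YLR014C, chromosome XII, 172268-174982), averaged 31.4 ± 7.06 CPM in ncs2Δelp6Δhel2Δ, 35.4 ± 4.65 CPM in ncs2Δelp6Δ, 43.7 ± 12.7 CPM in hel2Δ and 44.7 ± 8.81 CPM in wild type. It passed in none of the 7 comparisons, with a log2 fold change of −0.50 ± 0.29 over both backgrounds (adjusted p = 0.181).

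A list of 19 further genes of pyrimidine and deoxynucleotide metabolism, 12 of them tested, surrounds these members. In ncs2Δelp6Δ against wild type 2 rose and 3 fell, beside 30.1% of all genes. *FCY1*, cytosine deaminase, rose with a log2 fold change of 0.77 ± 0.25 and *RNR4*, a small subunit of ribonucleotide reductase, with 0.66 ± 0.21. *URA10*, *RNR3*, a large subunit of ribonucleotide reductase (log2 fold change −2.21 ± 0.48), and *URH1*, uridine hydrolase (−2.14 ± 0.49), fell. The rises of *FCY1* and *RNR4* were lost in some fits with 1 library left out, *FCY1* without ncs2Δelp6Δ replicate 1 (adjusted p = 0.0696), wild-type replicate 2 (0.139) or wild-type replicate 3 (0.0772), and *RNR4* without ncs2Δelp6Δ replicate 1 (0.0875) or wild-type replicate 3 (0.123).

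Over both *HEL2* backgrounds 2 of the 12 genes rose (*FCY1*, *RNR4*) and 5 fell (*URA10*, *RNR3*, *URH1*, *RNR2*, *FUI1*), beside 39.1% of all genes. DESeq2 called 4 of them, without *FCY1* (adjusted p = 0.0822), *RNR4* (0.0735) and *RNR2* (0.0989). *FUI1*, the uridine permease, had a log2 fold change of −0.58 ± 0.18 and *RNR2*, a small subunit of ribonucleotide reductase, of −0.62 ± 0.24. With each library left out in turn the calls of *RNR4*, *FCY1* and *RNR2* held in 2, 5 and 6 of 12 fits, and that of *FUI1* in 11 of 12 fits, where the exception was without hel2Δ replicate 1 (adjusted p = 0.0575). *FUI1* and *RNR2* passed in neither background alone. In ncs2Δelp6Δhel2Δ against hel2Δ *URA10* and *RNR3* fell, 2 of 12 beside 14.6% of all genes. *FCY1*, *RNR4* and *URH1*, called in ncs2Δelp6Δ against wild type, did not pass in ncs2Δelp6Δhel2Δ against hel2Δ. Their log2 fold changes there were 0.15 ± 0.26, 0.09 ± 0.21 and −0.45 ± 0.43 (edgeR adjusted p = 0.744, 0.824 and 0.516). The *RNR3* log2 fold change there was −1.26 ± 0.39 (edgeR adjusted p = 0.0307), and its call held in 2 of 6 fits with 1 library left out (adjusted p up to 0.228, without hel2Δ replicate 1). That call was also lost with DESeq2 (adjusted p = 0.0601) and with the replicate number as a block (0.0629). In ncs2Δelp6Δhel2Δ against wild type *URA10* was the 1 of 12 that fell (log2 fold change −2.32 ± 0.46, adjusted p = 0.00192) and none rose, beside 11.1% of all genes. By edgeR 0 of 12 passed in hel2Δ against wild type, in ncs2Δelp6Δhel2Δ against ncs2Δelp6Δ and for the interaction. The shares of all genes there were 0.0888%, 5.68% and 0.0296%. An unadjusted p under 0.05 was reached by 0, 4 and 1 of the 12, beside 141, 642 and 328 of all 3378 genes tested. DESeq2 also gave 0 in hel2Δ against wild type. DESeq2 gave no adjusted p for 8 of the 12 in ncs2Δelp6Δhel2Δ against ncs2Δelp6Δ and for 11 of the 12 for the interaction, and called 0 of the others.

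**Figure D4:**
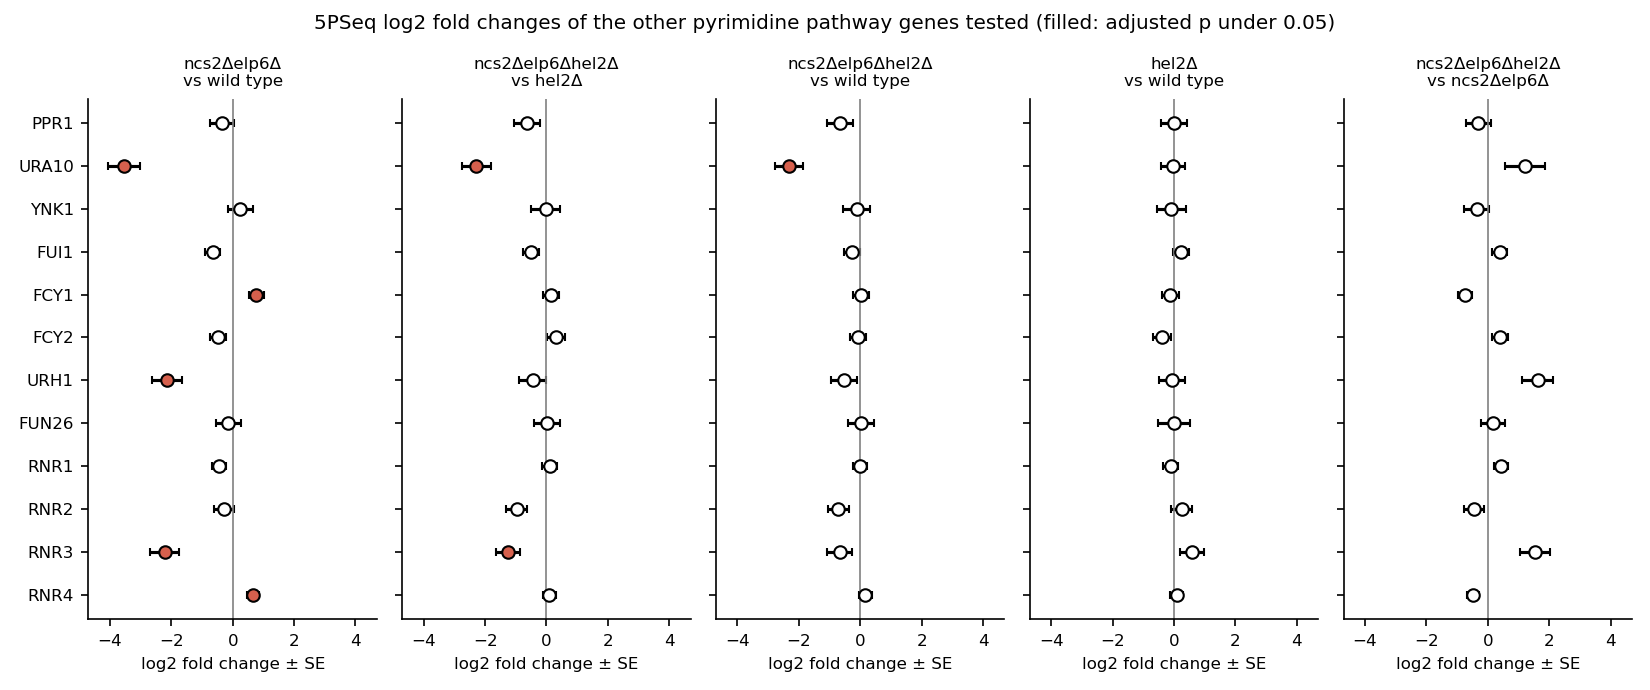
Log2 fold change (points) with its SE (bars) for the 12 further pathway genes tested, filled where the adjusted p was under 0.05, one panel per pairwise comparison. *URA10* is filled at −3.54 in ncs2Δelp6Δ against wild type and at −2.29 in ncs2Δelp6Δhel2Δ against hel2Δ, and no point is filled in hel2Δ against wild type.

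For the 2 members that passed in some comparison, the genes with the most similar pattern were read from Pearson's r of log2 CPM over the 12 libraries, among 3377 other genes, as a description. These were *ATG14* (r = 0.992), *BIO5* (0.989) and *RRP12* (0.988) for *URA6*, and *LGE1* (0.913), *MCH4* (0.905) and *EMC1* (0.898) for *URA8*. The 12 libraries fall into the 4 strains and differ in depth, and both features are shared by all genes compared.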

How the data were processed

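5PSeq was read in 12 libraries of 4 strains, grouped by their labels. The authors trimmed adapters (cutadapt), removed noncoding RNA with STAR 2.5.3a, mapped reads to annotated sacCer3 reading frames extended by 21 bp with Bowtie 1.2.3 (sense strand, unique, at most 1 mismatch), removed duplicates by 8-nt barcodes (UMI-tools) and deposited raw counts per gene. All columns were used.

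Here counts were tested with edgeR 4.0.16 in R 4.3.3 (quasi-likelihood F test, TMM, filterByExpr with a minimum count of 10, 1 model over the 4 strains, tested on simulated data first). The fit held 3378 of 6302 genes, 7 comparisons were made, and p-values were adjusted by Benjamini-Hochberg over all genes tested at a threshold of 0.05. A standard error is the log2 fold change divided by the square root of F. CPM values use TMM-scaled library totals, and log2 CPM a prior count of 2. Intervals and floors cover counting error only. Positions and lengths come from RefSeq R64, matched by locus tag for 5772 genes.

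The members and lists were chosen with earlier results of these data known. All 10 members are named, with *PPR1*, *URA10*, the deleted genes and the genes whose names appear in the marker labels. Further pathway genes with an adjusted p under 0.05 in any comparison are named too (*MIN9* was added after its values were seen). So are the 3 genes most like each member that passed. Part of the list of further pathway genes is not reported here. Alternatives were DESeq2 1.42.0, upper-quartile normalization, no filter, at least 10 counts in every library, only the strains compared, a replicate block, and each library left out.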

Additional observations from a re-analysis of the deposited data

How the results depend on the processing

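Of the members' calls, *URA6* in ncs2Δelp6Δ against wild type held in 11 of 11 alternatives in which it was tested (log2 fold change −2.45 to −1.86), and *URA6* and *URA8* over both *HEL2* backgrounds in 16 of 16 each (−1.77 to −1.35 and 0.75 to 1.155). *URA6* in ncs2Δelp6Δhel2Δ against hel2Δ held in 5 of 11 (−1.43 to −0.61). It was lost, giving 0 members, with DESeq2 (adjusted p = 0.0796) and with the replicate block (adjusted p = 0.0508), and leaving out 1 library gave 0 to 1. The block changed no other call of a member. Deviations of same-numbered libraries had mean correlations of −0.10 to 0.19 between strains. Pairing was not tested. With at least 10 counts in every library only 3 members were tested, and the count was 0 in ncs2Δelp6Δ against wild type, in ncs2Δelp6Δhel2Δ against hel2Δ and over both backgrounds, since *URA6* and *URA8* were then not tested. Without a filter the count was 2 in ncs2Δelp6Δ against wild type (*URA8*, adjusted p = 0.0288) and 1 in ncs2Δelp6Δhel2Δ against wild type (*URA6*, adjusted p = 0.0267). Leaving out 1 library gave 1 to 2 members in ncs2Δelp6Δ against wild type, 0 to 1 in ncs2Δelp6Δhel2Δ against wild type (*URA6* passed without ncs2Δelp6Δhel2Δ replicate 3 or wild-type replicate 1, adjusted p = 0.0220 and 0.0341) and 0 to 1 in ncs2Δelp6Δhel2Δ against ncs2Δelp6Δ (*URA6* passed without ncs2Δelp6Δhel2Δ replicate 2, adjusted p = 0.0133). The cause of these changes was not tested. The *URA4* log2 fold change, never past the threshold, ran from −0.86 to 0.048 in ncs2Δelp6Δ and from −0.95 to 0.0075 in ncs2Δelp6Δhel2Δ against wild type with 1 library left out, and turned without wild-type replicate 2. The *URA3* difference between libraries labelled with and without the marker ran from −1.10 to 0.71 CPM, and that between ncs2Δelp6Δhel2Δ and ncs2Δelp6Δ from 0 to 2.14 CPM. Of 713 values of members' log2 fold changes under an alternative, 636 kept direction and side of the threshold, 14 had no adjusted p (DESeq2), 48 changed sign while smaller than their standard error and not past it, 6 lost a call, 7 gained one and 2, both of *URA4*, turned. For all genes, DESeq2 called 41 against 1 for the interaction. No filter gave 311 against 192 in ncs2Δelp6Δhel2Δ against ncs2Δelp6Δ and 26 for the interaction. Only the strains compared gave 126 in ncs2Δelp6Δhel2Δ against ncs2Δelp6Δ. Leaving out 1 library gave 38 to 399 there. With at least 10 counts in every library, 1412 genes were tested and the counts were 553 against 1016 in ncs2Δelp6Δ against wild type, 241 against 374 in ncs2Δelp6Δhel2Δ against wild type, 308 against 492 in ncs2Δelp6Δhel2Δ against hel2Δ, 704 against 1320 over both backgrounds and 0 against 1 for the interaction. Leaving out 1 library gave 145 to 501 in ncs2Δelp6Δhel2Δ against wild type, 129 to 650 in ncs2Δelp6Δhel2Δ against hel2Δ, 1 to 2 against 3 in hel2Δ against wild type and 1 to 92 for the interaction.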
